A study of Rattus norvegicus with 6 samples.

Results

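Dendritic cells carry graft antigens to lymph nodes, and 7 genes that mark them (Itgax, Flt3, Zbtb46, Cd83, Batf3, Clec9a and Xcr1) were followed in grafted rat corneas. The genes were chosen by symbol for what they encode, with earlier results of these data known. Of the 7, 7 were found among the 17771 genes of the count table. RNA sequencing was done on corneas from Wistar recipients of SD (Sprague-Dawley) donor corneas, which are allografts, with daily intraperitoneal injections until day 7. The control group received saline and the other group received resveratrol, a plant polyphenol, and each group has 3 libraries of 35068936 to 37460756 counts. All 6 libraries come from grafted corneas, so none shows these genes in an ungrafted cornea, and the labels give neither age nor resveratrol dose. Whether each library is a different animal is not stated, so the tests reflect only how these libraries vary, and part of that may be technical.

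Dendritic cells develop from bone marrow precursors under the growth factor FLT3 ligand, which signals through the receptor kinase FLT3. Conventional dendritic cells share the transcription factor ZBTB46 and the integrin CD11c, encoded by Itgax. Their cross-presenting branch, cDC1, depends on the transcription factor BATF3 and bears the dead-cell receptor CLEC9A and the chemokine receptor XCR1. CD83 appears on the surface when dendritic cells mature. The cornea holds resident dendritic cells, mostly toward its periphery, and after grafting both donor and host dendritic cells can present alloantigen to T cells. None of these genes is exclusive to dendritic cells: Itgax is also found on macrophages and NK cells, Zbtb46 in blood endothelium, Cd83 on activated lymphocytes, Batf3 in T cells and Flt3 in early blood progenitors.

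Every one of the 7 genes had a lower mean level in resveratrol corneas, and Flt3 had the largest fitted difference among the 6 that could be tested. For Itgax, Flt3, Zbtb46 and Clec9a each resveratrol library lay below each control library, which was so for 14.4% of the 14213 genes tested. Cd83, Batf3 and Xcr1 overlapped between the groups. Levels are given as CPM, counts divided by library size after TMM scaling, which corrects for composition, and log2 fold changes are resveratrol minus control ± standard error. In edgeR's quasi-likelihood test 0 of the 6 tested genes passed an adjusted p of 0.05 (0% of all genes tested passed, and the smallest adjusted p over all genes was 0.1002). At an unadjusted p under 0.05 there were 4 of 6, all lower, against 11.7% of all genes tested (19.6% in either direction). Of all genes tested, 51.2% had a lower fitted level. Without control 3, 0.146% of all genes passed the adjusted threshold, and without resveratrol 2, 0.00694%; none of the 6 was among them. DESeq2, run as an alternative, called 2 of the 7 lower, Flt3 and Itgax, against 4.64% of all genes it gave an adjusted p (6.87% in either direction). The median log2 fold change of the 6 tested genes was -1.18, beside -0.0080 for all genes. Since the genes were chosen with earlier results of these data known, these comparisons with all genes only describe. In bulk tissue fewer cells of a type and less RNA per cell cannot be told apart.

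**Figure D1:**
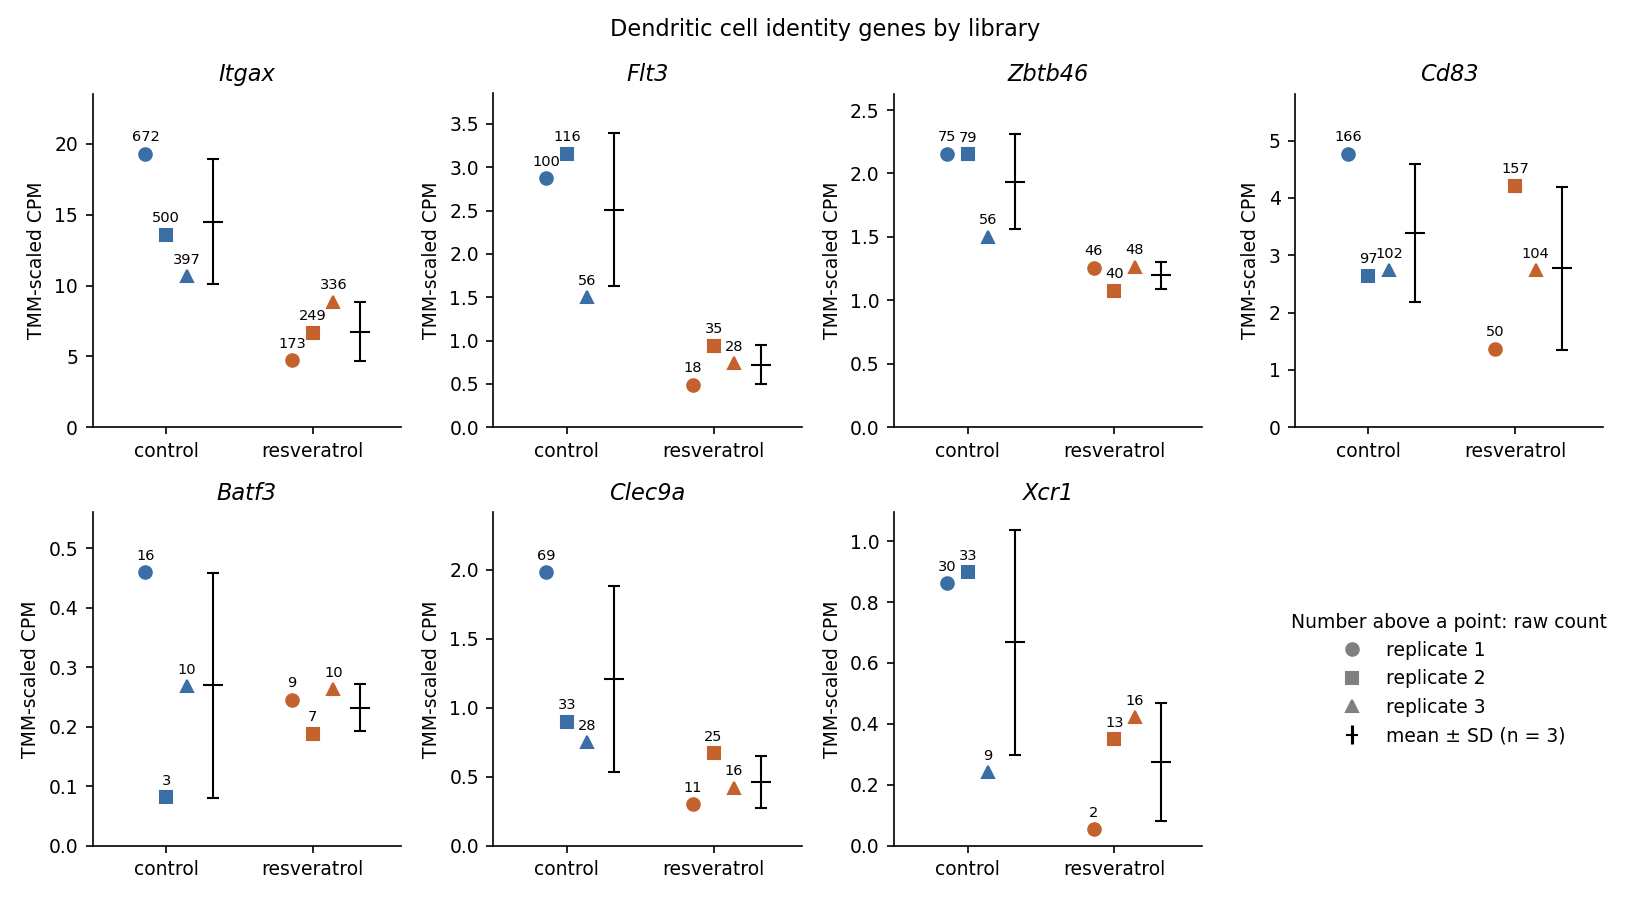
TMM-scaled CPM of each gene in each library, with the raw count above each point, a symbol for each replicate number, and a bar for the mean ± SD of 3 libraries per group. Itgax, Flt3, Zbtb46 and Clec9a separate the groups, whereas Cd83, Batf3 and Xcr1 overlap, and Xcr1 and Batf3 rest on 2 to 33 counts per library.

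Itgax encodes CD11c, the integrin alpha chain most used to gate dendritic cells, and was the most counted of the 7 genes. It had 672, 500 and 397 counts in control libraries 1, 2 and 3 and 173, 249 and 336 in resveratrol libraries 1, 2 and 3. In CPM the control libraries stood at 19.3, 13.6 and 10.6, against 4.72, 6.68 and 8.85 for resveratrol. The groups did not overlap, and control 3 and resveratrol 3 lay closest to each other. Group means were 14.5 ± 4.41 for control and 6.75 ± 2.06 CPM for resveratrol (SD, n = 3), a log2 fold change of -1.10 ± 0.29 with an edgeR adjusted p of 0.132. DESeq2 gave an adjusted p of 0.00894. That call did not hold without control 1 (DESeq2 adjusted p = 0.0909), control 2 (0.0522), resveratrol 1 (0.0631) or resveratrol 2 (0.0574). Itgax lies in a family of similar integrin alpha chains, and the sources used here do not give how reads shared between genes were counted.

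Flt3 encodes the receptor through which FLT3 ligand expands dendritic cell precursors. Control libraries 1, 2 and 3 held 100, 116 and 56 Flt3 counts, and resveratrol libraries 18, 35 and 28. Scaled, the control CPM was 2.87, 3.16 and 1.50, and that of resveratrol 0.492, 0.940 and 0.737. All resveratrol libraries lay below the lowest control library, which was again control 3. Means were 2.51 ± 0.886 and 0.723 ± 0.224 CPM (SD, n = 3), and the log2 fold change was -1.79 ± 0.38 (edgeR adjusted p = 0.118, DESeq2 adjusted p = 0.00271). Summed over libraries and corrected for depth, resveratrol corneas held 0.293 times the Flt3 counts of control corneas, with a 95% interval of 0.226 to 0.377. That interval and the others on summed counts are exact conditional binomial intervals that cover counting error only, not the spread between corneas. The DESeq2 call did not hold without control 2 (adjusted p = 0.0743).

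Zbtb46 encodes a zinc finger repressor that keeps conventional dendritic cells from taking other myeloid fates. It had 75, 79 and 56 counts in control and 46, 40 and 48 in resveratrol libraries 1, 2 and 3, or 2.16, 2.15 and 1.50 CPM and 1.26, 1.07 and 1.26 CPM. The groups did not overlap, and the 3 resveratrol libraries were close together. Its log2 fold change of -0.69 ± 0.25 did not pass in edgeR (adjusted p = 0.225) or DESeq2 (0.201). Because blood endothelium also expresses Zbtb46, its level was set beside the summed CPM of 7 blood endothelial markers, which ranged from 381 to 516 across control libraries and from 247 to 331 across resveratrol libraries. Relative to that sum the groups overlapped in Zbtb46 (log2 difference -0.096, two-sided exact permutation p = 0.8). The part of endothelial cells in the Zbtb46 difference was not tested.

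Cd83 encodes an immunoglobulin-family surface protein that stabilises MHC class II on mature dendritic cells. It had 166, 97 and 102 counts in control and 50, 157 and 104 in resveratrol libraries 1, 2 and 3, or 4.77, 2.64 and 2.73 CPM and 1.37, 4.21 and 2.74 CPM. Resveratrol 2 thus stood above 2 of the 3 control libraries, while resveratrol 1 was the lowest of all. With a log2 fold change of -0.28 ± 0.43 the difference was smaller than its error (edgeR adjusted p = 0.746). Its sign turned without control 1 (0.050) or without resveratrol 1 (0.051).

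The cDC1 genes were the least counted, and their counting error is correspondingly large. Clec9a, the receptor for exposed actin filaments of dead cells, had 69, 33 and 28 counts in control and 11, 25 and 16 in resveratrol libraries 1, 2 and 3. As CPM these were 1.98, 0.898 and 0.751 against 0.300, 0.671 and 0.421, so the groups did not overlap, although control 3 and resveratrol 2 differed by only 3 counts. The log2 fold change was -1.37 ± 0.46 (edgeR adjusted p = 0.210, DESeq2 0.141), and -0.82 without control 1, its highest library. The ratio of summed counts, resveratrol to control, was 0.394 (95% interval 0.280 to 0.547).

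Xcr1, the receptor for the chemokine XCL1, had 30, 33 and 9 counts in control and 2, 13 and 16 in resveratrol libraries 1, 2 and 3. Control CPM was 0.862, 0.898 and 0.241, and resveratrol CPM 0.0546, 0.349 and 0.421. Control 3 therefore lay below resveratrol 2 and 3, and the groups overlapped. The log2 fold change of -1.26 ± 0.72 did not pass in edgeR (adjusted p = 0.382) or DESeq2 (0.418), and without resveratrol 1, its lowest library, it was -0.78. For a count of 2, as in resveratrol 1, the exact 95% Poisson interval runs from 0.242 to 7.22 counts.

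Batf3, the factor that cDC1 development needs, had 16, 3 and 10 counts in control and 9, 7 and 10 in resveratrol libraries 1, 2 and 3, or 0.460, 0.0816 and 0.268 CPM and 0.246, 0.188 and 0.263 CPM. Both the highest and the lowest library were controls. It was left out of the edgeR test by the filter on low counts, and DESeq2 gave an adjusted p of 0.933. Summed counts were 29 in control and 26 in resveratrol, a ratio of 0.882 with a 95% interval of 0.499 to 1.55, and no difference in Batf3 was detected. Clec9a and Xcr1 together had 99, 66 and 37 counts in control and 13, 38 and 32 in resveratrol, and on these counts control 3 lay below resveratrol 2.

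Levels were compared between genes only per length, with the authors' deposited FPKM. In control corneas Cd83 and Itgax stood first, at 0.975 ± 0.345 and 0.964 ± 0.291 FPKM (SD, n = 3). Flt3 followed at 0.633 ± 0.223, Batf3 at 0.381 ± 0.267, Zbtb46 at 0.361 ± 0.0698 and Clec9a at 0.316 ± 0.175 FPKM. Each of these overlapped in range with the next, and only Xcr1, at 0.0530 ± 0.0293 FPKM, lay below its neighbour in every library. In resveratrol corneas Flt3 came after Batf3 and Zbtb46, at 0.185 ± 0.0593 FPKM against 0.332 ± 0.0580 and 0.226 ± 0.0205, and the ranges of Flt3 and Zbtb46 overlapped. The FPKM values imply a gene length of 14976 bases for Itgax and 12503 for Xcr1, against a median of 3102 over tested genes, which lowers the FPKM of those genes relative to the others.

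Promoter windows of 250 bases upstream of the start site, from RefSeq on the rat assembly GRCr8, were found for 7 of 7 genes. They were searched on both strands for 6 motifs, GAGGAA, the core bound by the myeloid factor PU.1; an ETS-IRF element, in which GGAA precedes GAAA with any 2 bases between; an IRF element, a repeat of GAAA with any 2 bases between; the AP-1 type site that BATF factors bind, in which TGA precedes TCA with any 1 base between; the TATA box TATAAA; and the GC box GGGCGG. The ETS-IRF and IRF elements can overlap; they occurred in 0 of the 7 windows, against 2.48% and 3.41% of all windows. Shown here are the windows of Flt3, Clec9a and Batf3, the 3 genes whose start in that table is also the outer end of the gene model. Whether motif content goes with the group differences was not tested. Capitals mark motif matches.
Flt3, chr12:12659785-12660034, plus strand, GRCr8: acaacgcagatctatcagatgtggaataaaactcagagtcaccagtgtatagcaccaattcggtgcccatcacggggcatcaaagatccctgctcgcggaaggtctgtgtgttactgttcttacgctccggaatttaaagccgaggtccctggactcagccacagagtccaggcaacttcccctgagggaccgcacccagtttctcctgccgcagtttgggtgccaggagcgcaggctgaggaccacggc
Clec9a, chr4:164546073-164546322, plus strand, GRCr8: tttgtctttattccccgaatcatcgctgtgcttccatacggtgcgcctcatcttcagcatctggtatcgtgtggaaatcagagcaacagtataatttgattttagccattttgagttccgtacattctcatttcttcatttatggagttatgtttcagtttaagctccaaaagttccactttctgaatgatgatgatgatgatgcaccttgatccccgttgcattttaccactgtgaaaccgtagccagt
Batf3, chr13:105220532-105220781, plus strand, GRCr8: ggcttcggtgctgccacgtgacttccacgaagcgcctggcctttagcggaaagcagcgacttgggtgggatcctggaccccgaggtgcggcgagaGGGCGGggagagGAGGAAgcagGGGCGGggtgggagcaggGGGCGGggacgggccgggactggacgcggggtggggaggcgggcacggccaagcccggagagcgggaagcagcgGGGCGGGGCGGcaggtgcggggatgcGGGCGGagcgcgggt

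The Batf3 window has a GC content of 75.2% and holds 6 GC boxes and 1 PU.1-type core, at position -143 from the start site. The Flt3 and Clec9a windows, with 56.0% and 40.8% GC, hold none of the 6 motifs in these letters. Over all 7 windows the PU.1-type core occurred in 3 (Zbtb46, Batf3 and Xcr1), against 23.3% of all 33469 windows of that length, and the AP-1 type site in 2 (Itgax and Xcr1), against 6.34%. A GC box occurred in 3, against 30.5% of windows. The windows of Itgax, Zbtb46, Cd83 and Xcr1 lie inside longer gene models and are not printed. A match describes these letters and is no evidence of binding.

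The 6 libraries did not behave alike. Control 1 was the highest library for 5 of the 7 genes and control 2 for the other 2. Resveratrol 1 was the lowest for 5. The median deviation of the 7 genes from their own mean log2 CPM was 1.004, 0.49 and 0.085 in control libraries 1, 2 and 3 and -1.04, -0.23 and -0.12 in resveratrol libraries 1, 2 and 3, so control 3 and resveratrol 3 were nearest across the groups. This order is not particular to the 7 genes. The main axis of variation over all tested genes (40.0% of variance) placed control libraries at -38.1, -28.8 and -7.46 and resveratrol libraries at 37.3, 20.3 and 16.8. The description of each group's replicate 1 carries the ending Sep and every other description the ending Oct, with no meaning stated. In the Sep pair 7 of 7 genes were lower in resveratrol, and in the Oct libraries 5 of 7. Within the Sep pair the log2 difference was -2.02 for Itgax, -2.42 for Flt3, -2.52 for Clec9a, -3.07 for Xcr1, -1.77 for Cd83, -0.78 for Batf3 and -0.75 for Zbtb46. Within the Oct libraries it was smaller for each gene in size, at -0.64 for Itgax, -1.33 for Flt3, -0.58 for Clec9a, -0.28 for Xcr1 and -0.60 for Zbtb46, and above 0 for Cd83 (0.33) and Batf3 (0.41). The Sep endings cover 1 library per group and allow no test. In the Oct libraries alone neither DESeq2 call held (adjusted p = 0.172 for Flt3 and 0.212 for Itgax).

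**Figure D2:**
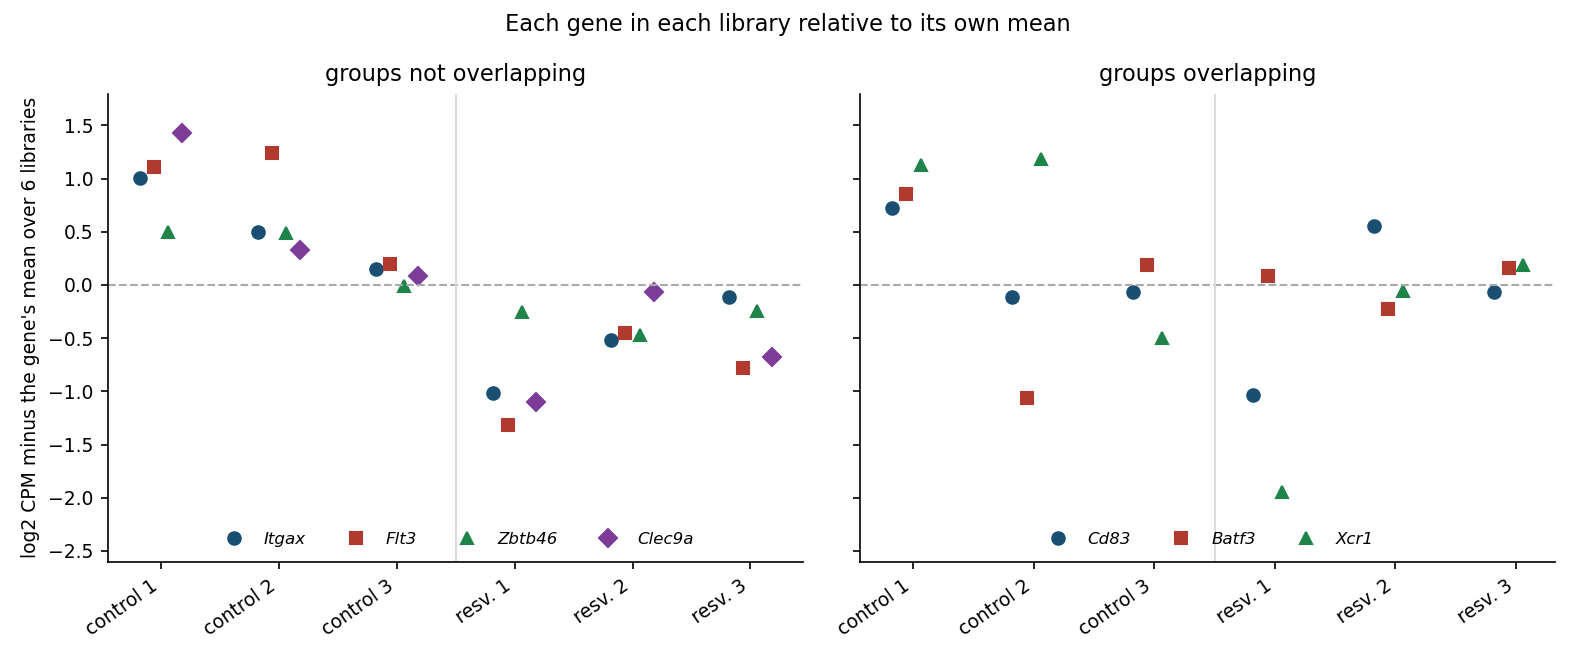
Log2 CPM of each gene minus its own mean over the 6 libraries, by library, with the genes whose groups did not overlap on the left and the others on the right. Control 1 and resveratrol 1 hold most of the extremes (Xcr1 is lowest in resveratrol 1), and the medians of control 3 (0.085) and resveratrol 3 (-0.12) lie near 0.

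Most other leukocyte markers also had lower means in resveratrol, and edgeR called none of them. Ptprc, which encodes the pan-leukocyte antigen CD45, was at 14.3 to 24.5 CPM in control and 9.01 to 14.9 CPM in resveratrol and overlapped, and 4 of 4 tested pan-leukocyte markers had lower means (median log2 fold change -0.85). The 11 macrophage and monocyte markers summed to 497 to 949 CPM in control and 390 to 565 CPM in resveratrol, with 8 lower and 3 higher. Of the 11, 4 were lower without overlap, against 14.4% of all genes. DESeq2 called 3 lower, against 4.64% of all genes, and 1 higher. Cd68 (57.4 ± 8.60 and 31.1 ± 7.00 CPM, -0.88 ± 0.18, DESeq2 adjusted p = 0.00113) and C1qa (61.2 ± 13.1 and 31.6 ± 8.74 CPM, -0.95 ± 0.23, DESeq2 0.00391) were lower without overlap. Mertk, a receptor for dying cells, named after its values were seen, was higher without overlap (11.1 ± 1.95 and 17.8 ± 3.63 CPM, 0.68 ± 0.19, DESeq2 adjusted p = 0.0207). Mrc1 and Cd163 had higher means and overlapped. Of 8 T cell markers, 7 were tested and all 7 had lower means; the 8 summed to 30.7 to 61.4 and 17.2 to 28.0 CPM. Most of that sum was Cd4, at 29.8 ± 10.2 and 17.0 ± 3.59 CPM, which rat macrophages also express, while Cd3e, a CD3 chain of the T cell receptor complex, was at 1.58 ± 1.02 and 0.417 ± 0.240 CPM. Neutrophil markers summed to 227 to 594 and 169 to 208 CPM. Most of that was S100a9 (236 ± 94.0 and 125 ± 29.2 CPM) and S100a8 (120 ± 80.8 and 46.2 ± 8.27 CPM), which epithelium can also express, and Csf3r, Cxcr2, Mmp8 and Retnlg each overlapped. NK and B cell markers had low sums, at 1.72 to 5.92 and 0.680 to 2.47 CPM in control and 0.683 to 2.76 and 0.737 to 1.16 CPM in resveratrol. Only 2 of 6 NK and 1 of 5 B cell markers had counts enough for the edgeR test. Klrk1 had 122, 120 and 54 counts in control and 8, 23 and 62 in resveratrol libraries 1, 2 and 3, and overlapped (-1.73 ± 0.67). Nkg7 (0.28 ± 0.72) and Pax5 (-0.46 ± 0.53) also overlapped. The B cell gene Ms4a1 was at 0 in all libraries but control 2. Corneal epithelium markers, led by Krt12, summed to 70697 to 75988 CPM in control and 68559 to 83554 CPM in resveratrol, and overlapped. Corneal stroma markers summed to 10479 to 14389 CPM in control and 7489 to 10276 CPM in resveratrol, without overlap. Col1a1 carried most of that difference (7044 ± 2112 and 3593 ± 924 CPM), and Kera, Lum, Dcn and Aqp1 each overlapped (list median -0.19). The part of these cells in the differences above was not tested.

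Set against Ptprc in the same library, Flt3 alone of the 6 tested genes kept the groups apart. Flt3 stood at 11.9%, 14.1% and 10.8% of the Ptprc CPM in control libraries 1, 2 and 3 and at 6.06%, 9.69% and 5.32% in resveratrol (log2 difference -0.85). Relative to Ptprc, 0.697% of all other tested genes were lower in resveratrol without overlap. Itgax stood at 79.0%, 60.0% and 74.6% in control and 53.0%, 65.7% and 59.8% in resveratrol, and overlapped (log2 difference -0.25). Clec9a (-0.38) and Xcr1 (-0.36) had lower means and Zbtb46 (0.19) and Cd83 (0.48) higher means relative to Ptprc, each overlapping. A two-sided exact permutation test gave p = 0.1 for Flt3, the smallest that 3 against 3 libraries allow, and 0.2 to 0.6 for the other 5. Over the 24 such comparisons made, with 4 references, the smallest adjusted p was 0.343. With the sum of 5 pan-leukocyte markers as reference Itgax also separated the groups (log2 difference -0.25 in both cases), which 0.767% of genes did. Relative to the macrophage and monocyte sum, Itgax (-0.52) and Flt3 (-1.12) were lower without overlap, which 1.45% of genes were.

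**Figure D3:**
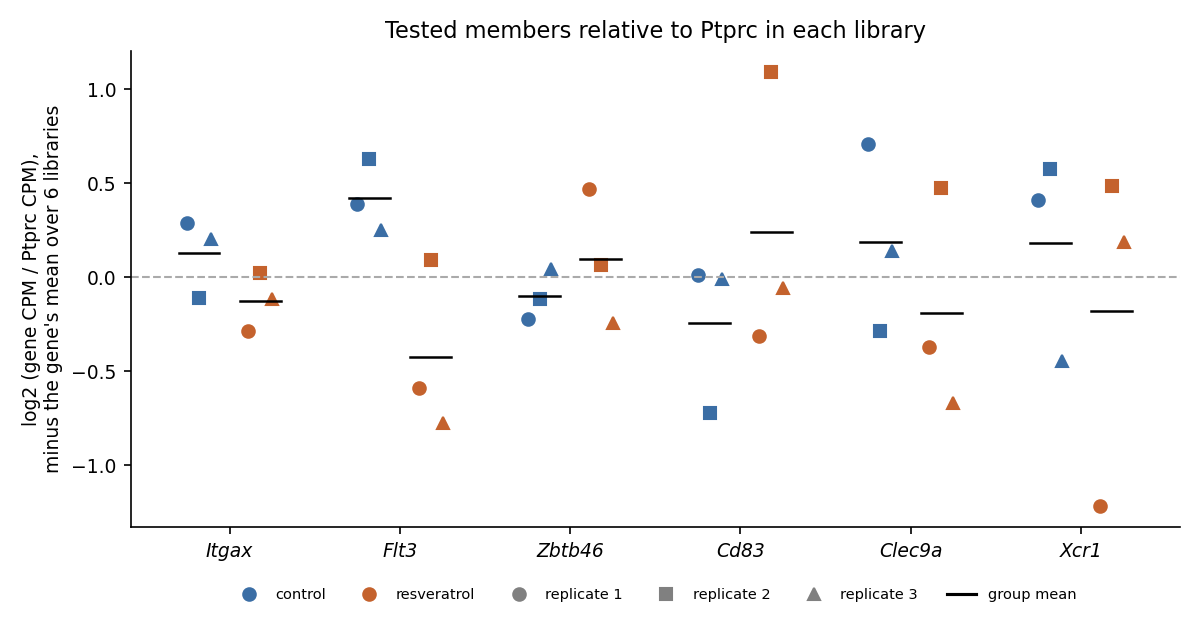
Log2 ratio of each tested gene to Ptprc in each library, minus the gene's mean over 6 libraries, with colours for the groups, symbols for replicate numbers and bars for group means. For Flt3 all control libraries lie above all resveratrol libraries (group means differ by 0.85), while the groups overlap for the other 5 genes.

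Among 10 further genes linked to cDC1, 6 had lower and 4 higher means, 5 were lower without overlap and DESeq2 called 3 lower, while edgeR called 0. Of all genes tested, 14.4% were lower without overlap, and DESeq2 called 4.64% of the genes it gave an adjusted p lower. Itgae, the CD103 integrin chain of tissue cDC1 and resident T cells, was at 4.63 ± 0.781 CPM in control and 2.62 ± 0.326 in resveratrol (-0.82 ± 0.20). Ppt1, a lysosomal thioesterase, was at 47.0 ± 8.21 and 32.9 ± 1.94 CPM (-0.52 ± 0.13). Id2, an inhibitor of helix-loop-helix factors that many tissues express, was at 43.7 ± 3.95 and 49.5 ± 4.79 CPM and overlapped. The list median was -0.39.

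Of 9 genes linked to cDC2, the branch that primes helper T cells, 7 had lower and 2 higher means (median -0.12). DESeq2 called 3 lower, against 4.64% of all genes. Clec4a, an inhibitory C-type lectin of dendritic cells, had 50, 64 and 52 counts in control and 8, 19 and 16 in resveratrol libraries 1, 2 and 3, without overlap (-1.98 ± 0.36, edgeR adjusted p = 0.103, DESeq2 0.00122). Cd1d1, which presents lipids, was at 4.19 ± 0.260 and 2.27 ± 0.406 CPM (-0.88 ± 0.20). Klf4 and Notch2 had the highest CPM on this list and higher means in resveratrol (0.20 ± 0.093 and 0.18 ± 0.10). Klf4 was higher without overlap, Notch2 overlapped, and both are also expressed in epithelium. On the whole list 3 genes were lower without overlap, against 14.4% of all genes, and 1 was higher.

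Genes of dendritic cell maturation and migration had lower means in 8 of 10 tested members (median -0.82). Of these, 4 were lower without overlap and DESeq2 called 3, against 14.4% and 4.64% of all genes. Il12b, the shared subunit of interleukins 12 and 23, was at 2.86 ± 1.62 and 0.650 ± 0.234 CPM (-2.13 ± 0.54, edgeR adjusted p = 0.131, DESeq2 0.00594). Cd86, a costimulatory ligand of CD28, was at 2.43 ± 0.797 and 0.922 ± 0.277 CPM (-1.39 ± 0.35), and Cd40 at 3.12 ± 0.0723 and 2.05 ± 0.219 CPM (-0.60 ± 0.19). Fscn1, the actin bundler of mature dendritic cells, which other corneal cells may also express, differed by 0.0072 ± 0.14. Lamp3 and Icosl were not among the symbols of the count table.

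Plasmacytoid dendritic cells, the interferon-producing relatives, were represented by 7 genes, of which 4 were tested and all 4 had lower means (median -0.56). Irf7, the inducer of type I interferon that is itself an interferon target, was at 137 ± 45.5 and 57.5 ± 7.05 CPM (-1.25 ± 0.24). Runx2 (-0.66 ± 0.14) and Tcf4 (-0.45 ± 0.12) had lower means, and both are also expressed outside this lineage. Siglech, the lectin specific to these cells in rodents, was named after its values were seen. It had 31, 9 and 6 counts in control and 0, 2 and 2 in resveratrol libraries 1, 2 and 3 and was too low for the edgeR test (DESeq2 adjusted p = 0.0523). Langerhans cell genes had lower means in 3 of 4 members, 1 of which, Cd1d1, was also counted among the cDC2 genes. Cd207, which encodes langerin and was named after its values were seen, had 52, 60 and 49 counts in control and 15, 47 and 24 in resveratrol libraries 1, 2 and 3, without overlap in CPM (-0.94 ± 0.41, DESeq2 adjusted p = 0.257). The broadly expressed genes on the list were Tgfb1 at 74.0 ± 11.4 and 51.6 ± 10.9 CPM (-0.52 ± 0.17) and Epcam, an adhesion molecule of epithelium in general, at 164 ± 6.66 and 173 ± 4.02 CPM (0.076 ± 0.067).

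A list of 9 ligands, growth factors and colony-stimulating factor receptors of the lineage had lower means in 7 of 7 tested members (median -0.36), of which 4 are ligands (Flt3lg, Csf1, Il34 and Kitlg) and 3 are receptor genes (Csf1r, Csf2ra and Csf2rb). The receptors had the larger fitted differences, at -0.90, -0.69 and -0.61, against -0.36 to -0.044 for the ligands. For Csf2ra (± 0.23) and Csf2rb (± 0.34) the groups overlapped, as for Kitlg. Csf1r, Flt3lg, Csf1 and Il34 were lower without overlap. Flt3lg and Xcl1, the ligands of FLT3 and XCR1, were named after their values were seen. Flt3lg had 169, 226 and 236 counts in control and 167, 154 and 182 in resveratrol libraries 1, 2 and 3. In CPM its groups did not overlap, with 4.86 in the lowest control and 4.79 in the highest resveratrol library (-0.36 ± 0.17, edgeR adjusted p = 0.297). Xcl1 had at most 4 counts in a library. Csf1r, the receptor that macrophages need, was at 60.2 ± 17.3 and 32.3 ± 5.97 CPM (-0.90 ± 0.24), its ligand gene Csf1 at 23.7 ± 1.90 and 18.8 ± 1.59 CPM (-0.34 ± 0.11), and Kitlg differed by -0.044 ± 0.11.

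Transcription factors of the wider blood lineage had lower means in 4 of 7 members (median -0.27). Runx3, which acts in dendritic and T cells, was at 7.74 ± 0.932 and 3.40 ± 0.502 CPM without overlap (-1.18 ± 0.18, edgeR adjusted p = 0.1002, DESeq2 1.12e-05). Spi1, which encodes PU.1, was at 14.6 ± 3.67 and 7.74 ± 3.27 CPM and overlapped (-0.92 ± 0.32). Stat3 was higher in resveratrol without overlap (0.37 ± 0.13). A list of integrin genes related to CD11c and the ligand gene Icam1 had lower means in 4 of 5 members. All 4 were integrin genes, and DESeq2 called each of them lower, against 4.64% of all genes. Itgb2, the beta chain that pairs with CD11c, was at 32.2 ± 16.4 and 14.4 ± 4.11 CPM (-1.16 ± 0.34). Itgad was at 0.562 ± 0.0685 and 0.143 ± 0.0291 CPM (-1.95 ± 0.38) and Itgal at 14.9 ± 6.59 and 5.23 ± 1.74 CPM (-1.51 ± 0.38). Icam1, a ligand of these integrins, had a higher mean in resveratrol and overlapped (0.52 ± 0.22). MHC class II genes had lower means in 8 of 8 members (median -1.32). Of these, 7 were lower without overlap and DESeq2 called 6, against 14.4% and 4.64% of all genes. Cd74, the invariant chain, was at 396 ± 156 and 165 ± 22.8 CPM (-1.26 ± 0.26), RT1-Da at 182 ± 87.5 and 70.1 ± 14.4 CPM (-1.38 ± 0.32) and RT1-Db1 at 40.5 ± 17.0 and 14.9 ± 3.10 CPM (-1.44 ± 0.29).

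**Figure D4:**
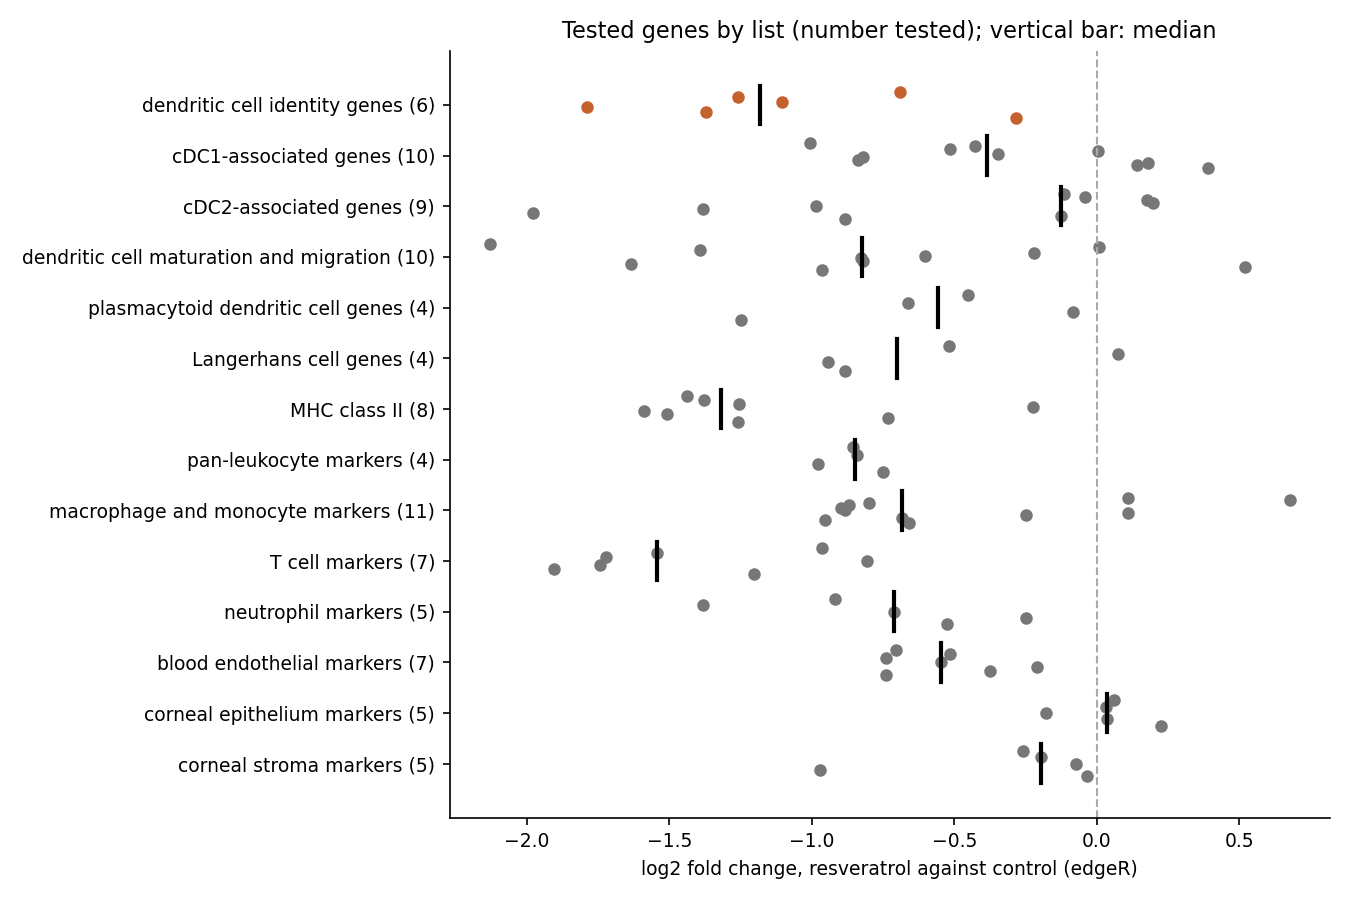
Log2 fold change (edgeR, resveratrol against control) of each tested gene by list, with the number tested in parentheses and the median as a vertical bar. The dendritic cell identity genes (orange, median -1.18) lie wholly below 0, as do the plasmacytoid, MHC class II, pan-leukocyte, T cell, neutrophil, blood endothelial and corneal stroma genes, and the corneal epithelium genes lie on both sides of 0.

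The genes most like each member over the 6 libraries were found by the root mean square difference between log2 CPM profiles, each centred on its own mean. Near to Itgax were Fmnl1 (0.055) and Nckap1l (0.060), and nearest to Zbtb46 were Piezo2 (0.063), Adamts7 (0.069) and Sulf1 (0.072). Flt3 had no gene as close, with Igfbp3 at 0.23 and Icos and Ret at 0.25 each. Cd83 had Cd28 at 0.18 and Gucy1b1 and P2ry12 at 0.19 each. Among the 6 tested members, Batf3 left out, the closest pair was Itgax and Clec9a (0.35), and the most distant was Zbtb46 and Xcr1 (0.85). Clec9a, Xcr1 and Batf3 had under 300 counts each and were not searched.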

How the data were processed

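Corneal RNA was extracted with a fibrous-tissue kit and sequenced as paired-end reads, per the labels' protocols. The authors deposited raw gene counts and FPKM values. R 3.2.0, DESeq2 and the build mRatBN7.2 appear in the submitters' processing notes, without a stated use. The sources used here give no aligner, counter, strand setting or treatment of shared reads. A separator is missing in the count header, and columns were assigned after splitting the joined names.

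Counts were filtered (filterByExpr, leaving 14213 genes), TMM-scaled and tested with edgeR 4.0.16 (glmQLFit, glmQLFTest) with Benjamini-Hochberg adjustment over all genes; adjusted p-values in the text come from it or from DESeq2 1.42.0. Standard errors come from limma 3.58.1 on log2 CPM (prior count 2). The filter removed Batf3. Fits were tested on simulated data. Alternatives were other scaling, filters, DESeq2, limma voom, limma on log2(FPKM + 1) and log2(FPKM + 0.1), a replicate block, the Sep and Oct endings and each library left out.

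Members and lists were chosen with earlier results of these data known. Named genes were the 7 members, the 2 highest in CPM and 2 smallest in p of each list, and the 3 nearest profiles of members with at least 300 counts; 1 gene that the rule names is not reported here.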

Additional observations from a re-analysis of the deposited data

How the results depend on the processing

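In edgeR's quasi-likelihood test 0 of the 7 genes passed under any alternative, and over those fits the adjusted p ranged from 0.0807 to 0.294 for Flt3 and from 0.108 to 0.307 for Itgax. DESeq2 called 1007 genes in all (6.87% of the genes it gave an adjusted p), 38 genes of the context lists and 2 members. The lists were chosen with earlier results of these data known, so these counts only describe. In DESeq2 fits that left out 1 library, added after the data were seen, 0 to 2 members were called. The share of all genes called in those fits was not counted. Leaving out 1 library in edgeR gave 0 to 21 genes over all genes and 0 to 1 on the context lists. Itgax, Flt3, Zbtb46, Clec9a and Xcr1 kept a lower mean under all alternatives in which they were tested. The Cd83 difference turned positive in the Oct libraries alone (0.37 in edgeR, 0.39 in DESeq2), without control 1 (0.050 and 0.057) and without resveratrol 1 (0.051 and 0.063), and over the edgeR leave-outs it ranged from -0.72 to 0.051. The Batf3 difference in DESeq2 turned positive without control 1 (0.42) and in the Oct libraries (0.38). The median of the corneal epithelium list turned to -0.0054 without control 2 and to -0.052 without resveratrol 1 (up to 0.11 over the leave-outs), and that of the stroma list to 0.037 without resveratrol 3 (down to -0.25 over the leave-outs). The cause of these turns was not tested.

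Relative to Ptprc, 1 gene kept the groups apart, and 2 did with the pan-leukocyte sum, against 0.697% and 0.767% of all genes. Leaving out 1 library gave 1 to 3. Smaller groups overlap less easily, and the share of all genes was not counted for those sets, so that range only describes. Without resveratrol 1 the Xcr1 log2 difference relative to Ptprc turned to 0.16, and that of Zbtb46 was 0.0081. Same-numbered libraries did not deviate together (correlations -0.0044, -0.012 and -0.023), and the labels do not state whether the numbers pair them. With 3 libraries per group these correlations cannot decide whether the libraries were paired. With the replicate number as a block the Flt3 log2 fold change was -1.76 and that of Itgax -1.10, 0 genes passed, and the members at an unadjusted p under 0.05 went from 4 to 2. For Batf3 and Xcr1, counts of 2 to 33 per library limit what can be seen.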

Other observations

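The deposited FPKM and counts together give the gene length the authors divided by, which came out within 0.0001 of a whole number for all 7 members. It was 14976 bases for Itgax and 12503 bases for Xcr1, longer than 98.2% and 96.8% of the genes tested, whereas Batf3, at 703 bases, was longer than only 3.31%. Flt3, Zbtb46, Cd83 and Clec9a had 3945, 5324, 3446 and 3805 bases. Per kilobase of these lengths the 3 control libraries held 105 Itgax counts, 106 Cd83 counts, 68.9 Flt3 counts and 5.76 Xcr1 counts. How the counts are spread along the Itgax and Xcr1 models was not analysed here. Fold changes within a gene do not use the length.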
